A study of Mus musculus with 2 samples.

Results

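The miRNAs described here are mmu-miR-122-5p, mmu-miR-122-3p, mmu-miR-192-5p, mmu-miR-192-3p, mmu-miR-194-5p and mmu-miR-215-5p (mmu for the mouse, left out below), known as miRNAs of hepatocytes and of gut and kidney epithelium, measured in epididymal adipose tissue. They were chosen by name from the probe names of the array, and all 6 had a probe among the 1900 miRNA probes. Each array held 1 spot of each probe. Other arms of the same hairpins had 3 further probes, miR-194-1-3p, miR-194-2-3p and miR-215-3p, which are described beside them.

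Epididymal adipose tissue is a visceral fat depot attached to the epididymis. It was taken from male C57BL/6J mice, an inbred strain, whose feeding began at 8 weeks of age and lasted 8 weeks. The normal-diet group received a diet with 5% fat, and the high-fat group a diet with 60% of its energy from fat. Each diet has 1 array of total RNA, and the number of mice behind an array is not stated in the labels. The number of arrays limits the precision: there is no p-value, and the differences have no check by replicates. The arrays lay at positions 1 and 2 of a slide, so diet and position cannot be told apart.

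miR-122 is the main miRNA of hepatocytes, where it takes part in the control of cholesterol and lipid metabolism. miR-192, miR-194 and miR-215 are typical of the epithelium of gut, kidney and liver, and their genes are known targets of the hepatocyte nuclear factors and, in human cells, of p53. A miRNA recognises its target mRNAs mainly through its seed, bases 2 to 8 from the 5′ end, so miRNAs with the same seed share many predicted targets. None of these miRNAs is known as a defining miRNA of fat cells. In bulk tissue, fewer cells of a type and less RNA per cell cannot be told apart.

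The mature sequences below show which of these miRNAs share a seed and which probes have close relatives. They come from RefSeq on build GRCm38.p6, which matched 4 of the 6 miRNAs and the 3 other arms, and the seed is in capitals:
miR-192-5p: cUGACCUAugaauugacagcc
miR-215-5p: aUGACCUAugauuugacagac
miR-194-5p: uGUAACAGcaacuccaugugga
miR-194-1-3p: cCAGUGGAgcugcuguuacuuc
miR-194-2-3p: cCAGUGGGgcugcuguuaucug
miR-192-3p: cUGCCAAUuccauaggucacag

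miR-192-5p and miR-215-5p have the same seed, UGACCUA, and no other of the 1614 array miRNAs matched by name to RefSeq has it. Over their 21 bases they differ at 3 positions, counted from the 5′ end of miR-192-5p: C1A, A12U and C20A. The seed of miR-194-5p, GUAACAG, belonged to no other matched miRNA of the array. miR-194-1-3p and miR-194-2-3p, the opposite arms of the separate miR-194 genes, differ at 4 of 22 bases, and A8G, counted from the 5′ end of miR-194-1-3p, lies in the seed.

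miR-192, miR-194 and miR-215 come from a pair of loci. Neither arm of miR-122 was matched to RefSeq, so its locus is not given here. On chromosome 19, plus strand, Mir194-2 (chr19:6264643-6264728) is followed after 115 bases by Mir192 (chr19:6264844-6264932), and no other gene of the RefSeq table overlapped either hairpin. On chromosome 1, plus strand, Mir194-1 (chr1:185313319-185313385) is followed after 195 bases by Mir215 (chr1:185313581-185313692), both inside the span of Iars2, a mitochondrial isoleucyl-tRNA synthetase gene. The hairpins are shown because they make clear which probe can tell the loci apart, with the mature arms in capitals, the 5′ arm before the 3′ arm:
Mir194-2: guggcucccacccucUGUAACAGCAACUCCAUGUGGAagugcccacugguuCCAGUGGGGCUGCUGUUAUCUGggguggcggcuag
Mir192: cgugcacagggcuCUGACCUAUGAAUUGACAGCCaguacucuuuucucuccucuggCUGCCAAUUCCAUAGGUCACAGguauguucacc
Mir194-1: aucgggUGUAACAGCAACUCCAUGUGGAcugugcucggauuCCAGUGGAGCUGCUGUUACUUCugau
Mir215: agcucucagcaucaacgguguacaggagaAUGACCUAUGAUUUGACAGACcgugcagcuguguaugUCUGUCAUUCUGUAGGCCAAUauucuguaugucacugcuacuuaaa
The 5′ arm is the same in Mir194-1 and Mir194-2, so the probe of miR-194-5p reads the sum of both loci, while miR-192 comes from chromosome 19 and miR-215 from chromosome 1.

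miR-192-5p and miR-194-5p were the members with a clear signal, and both were brighter on the high-fat array. miR-122 and miR-215 lay among the blank spots on both arrays. The values given first are net signals: the median intensity of the spot minus the mean of the array's 896 blank spots, from which 5% had been trimmed at each end. A probe counted as detected where its net signal exceeded 2 SD of the blanks, which was 1.87 under normal diet and 1.59 under high-fat diet. By this rule 3 of the 6 members were detected under normal diet, as were 72.1% of all miRNA probes, and 3 under high-fat diet, as were 79.5%.

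**Figure D1:**
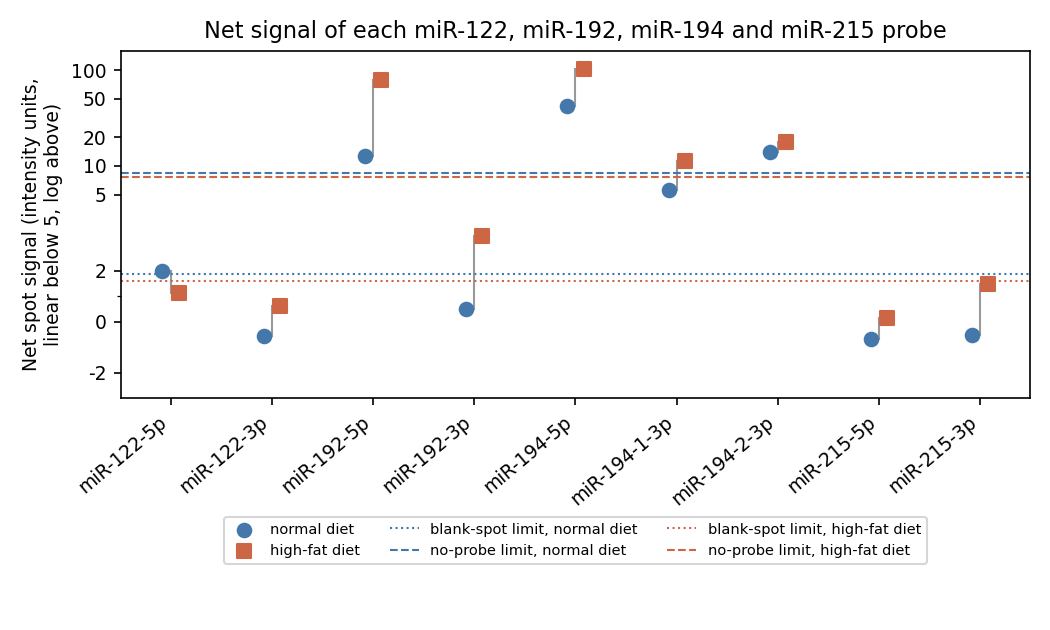
Net signal (intensity units, linear below 5 and logarithmic above) of the 6 miRNAs and the 3 other arms, with the normal-diet array as circles and the high-fat array as squares. Dotted lines are the limits from blank spots and dashed lines those from spots without a probe. miR-192-5p lies at 12.6 and 78.7 and miR-194-5p at 41.7 and 104, while miR-122 and miR-215 lie near 0.

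miR-192-5p, the 5′ arm of Mir192 on chromosome 19, had a net signal of 12.6 under normal diet and 78.7 under high-fat diet, which is 6.24 times as much. None of the 896 blank spots was as bright on either array. The net signals of blank spots differed between the arrays with an SD of 1.43, against a difference of 66.1 for this probe. After background correction with an offset of 50 and quantile scaling over all miRNA probes, its normalised intensity was 69.1 on normal diet and 128 on high-fat diet, a log2 difference of 0.88. The offset draws dim values together by construction. By plain subtraction of the blank mean with the same scaling the difference was 2.29. The authors' deposited values for this probe were 23.4 and 123, a log2 difference of 2.39.

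miR-194-5p, the arm common to Mir194-1 and Mir194-2, had a net signal of 41.7 under normal diet and 104 under high-fat diet, which is 2.50 times as much. No blank spot reached it on either array. Its normalised intensity was 102.9 on normal diet and 149 on high-fat diet, a log2 difference of 0.54. Plain subtraction gave 0.96. The authors' deposited values were 77.6 and 162 for this probe, a log2 difference of 1.06. As a measure of error within the arrays, the control S-Probe27, which was nearest to miR-194-5p on the high-fat array and brighter than it on the normal-diet array, had net signals of 117 ± 6.17 and 97.3 ± 10.7 (SD, n = 8 spots). Across 5 bright controls with 8 spots each, the log2 difference of a single spot varied with an SD of 0.102 to 0.185. With the blank mean as background, the differences of miR-192-5p and miR-194-5p were both larger than this spread, which covers spots of an array and not mice. With the local background, described below, that of miR-194-5p was -0.00313 and lay within it.

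Neither member reached 2-fold in the normalised values, where 1.27% of the 1339 miRNAs detected on both arrays were at least 2-fold higher on the high-fat diet and 0.747% at least 2-fold lower. miR-192-5p ranked 25 and miR-194-5p 51 of these 1339 by their log2 difference, counted from the highest. By plain subtraction they ranked 17 and 70, and in the authors' deposited values 18 and 93. By plain subtraction miR-192-5p was past 2-fold and miR-194-5p was not, with 4.78% of all miRNAs at least 2-fold higher and 7.99% lower. With an offset of 16 miR-192-5p alone passed, beside 2.24% higher and 0.971% lower over all. With scaling to the spike controls both passed, beside 3.36% and 0.373%. In the authors' deposited values both passed as well, beside 7.54% and 4.63%. Whether these members count as past 2-fold therefore rests on the offset and the scaling.

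**Figure D2:**
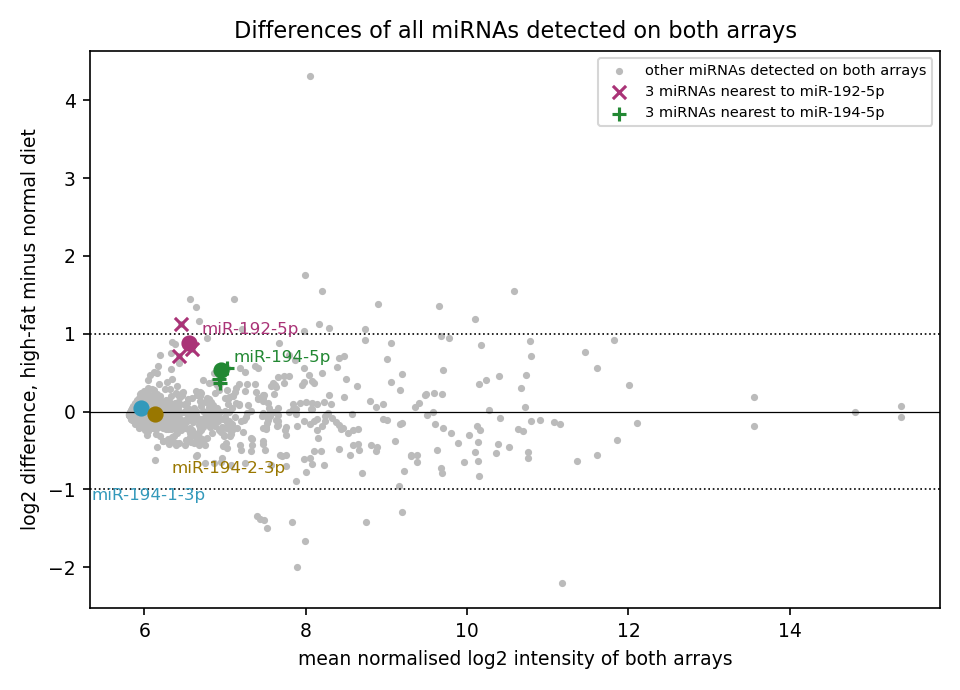
Log2 difference (high-fat minus normal diet) against the mean normalised log2 intensity of both arrays, for the 1339 miRNAs detected on both. Dotted lines mark 2-fold, and crosses mark the 3 miRNAs nearest to each member. miR-192-5p at 0.88 and miR-194-5p at 0.54 lie above 0 and under the 2-fold line, and the other arms lie near 0.

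The local background moved with both spots. Besides the spot, the scanner gives the intensity around it, which over 219 and 240 miRNA spots with a net signal above 100 stood above its own blank level by a median share of 0.614 and 0.578 of their net signals. For miR-192-5p it was 75.9 under normal diet and 117 under high-fat diet, and the spot exceeded it by 12.3 and 30.5. For miR-194-5p it was 99.3 and 157, and the spot exceeded it by 18.1 and 16.6. With this local background in place of the blank mean, miR-192-5p had a log2 difference of 0.26 and miR-194-5p of -0.00313, so the direction of miR-194-5p depends on the background taken.

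The spots next to both probes were read to see whether their surroundings had brightened as well. Beside miR-192-5p in the same row, miR-196a-5p had net signals of 1.09 and 1.72, and miR-299a-5p of 4.48 and 4.44, on normal and high-fat diet. Beside miR-194-5p in the same row, miR-195a-5p had 582 and 500.2, and miR-10b-5p 593 and 446, both dimmer on the high-fat array. In the next row, miR-741-3p beside miR-192-5p (-4.71 and 118) and miR-878-3p beside miR-194-5p (5.95 and 57.2), both of a testis cluster on the X chromosome, were brighter on the high-fat array. The other next-row spots were miR-135a-1-3p (14.8 and 11.6) and miR-127-5p (-0.277 and 1.40) beside miR-192-5p, and miR-872-5p (6.75 and 19.8) and miR-718 (0.0313 and 0.531) beside miR-194-5p. The part of these neighbours in the results was not tested.

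**Figure D3:**
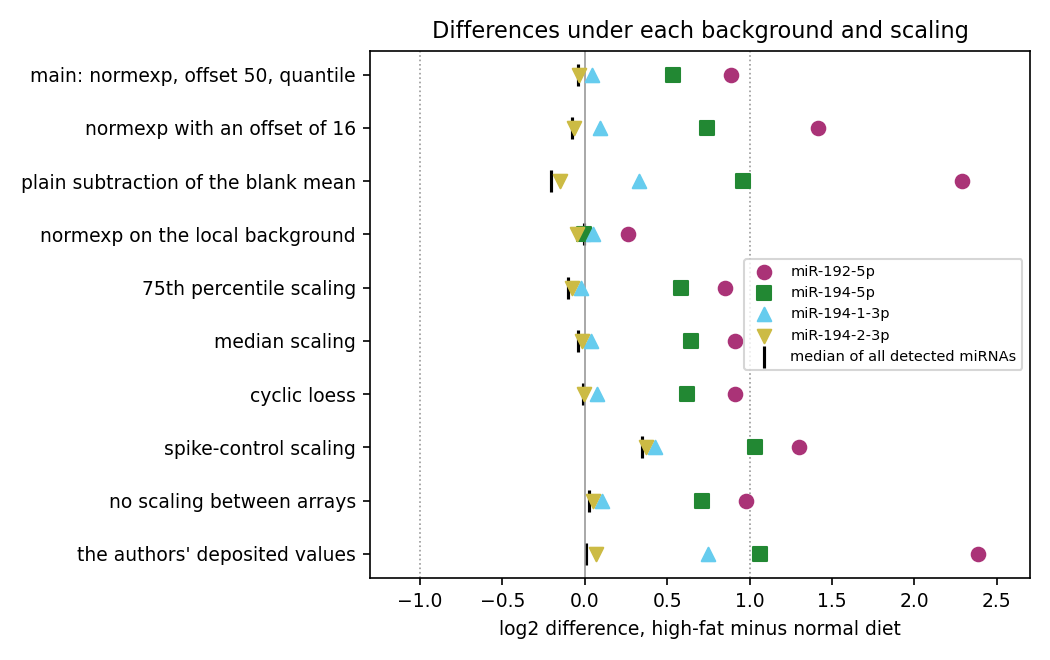
Log2 difference (high-fat minus normal diet) of the 4 probes detected on both arrays under the main processing and the alternatives, with the median of all detected miRNAs as a black bar and 2-fold as dotted lines. miR-192-5p is above 0 under each, from 0.26 to 2.39, and miR-194-5p under all but the local background, where it is -0.00313.

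The 3′ arms of the miR-194 genes carry separate sequences for the separate loci. Both were dim, and the main processing, whose offset draws dim values together, gave log2 differences near 0. miR-194-2-3p, from the locus on chromosome 19 that also holds Mir192, had net signals of 14.0 on normal diet and 17.6 on high-fat diet. Its log2 difference was -0.03, and it ranged from -0.15 by plain subtraction to 0.37 with scaling to the spike controls, with a sign above 0 in 3 of 10 settings. miR-194-1-3p, from the locus on chromosome 1, had net signals of 5.57 on normal diet and 11.2 on high-fat diet, which is 2.01 times as much. On normal diet it lay under the limit from spots without a probe, 8.47, and 27 of 174 such spots were as bright or brighter. Its log2 difference was 0.04, with 0.33 by plain subtraction and -0.02 with 75th percentile scaling, and the authors' deposited values gave 0.75. Neither passed 2-fold in any of the 10 settings. Scaling to the spike controls moved the median of the 1339 miRNAs from -0.04 to 0.35. Relative to that median, miR-192-5p stood at 0.95, miR-194-5p at 0.69, miR-194-1-3p at 0.08 and miR-194-2-3p at 0.02.

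miR-192-3p, the opposite arm of the Mir192 hairpin, had a net signal of 0.520 under normal diet, with 304 of 896 blank spots as bright or brighter, and of 3.36 under high-fat diet, with 3 as bright. It was thus detected on the high-fat array only. No fold can be given, since its normalised high-fat value, 56.7, does not exceed the floor set by the normal-diet array. Its net difference of 2.84 lies just outside the central 95% of blank spots, which ran from -2.75 to 2.77, and inside that of the 174 spots named as having no probe, which ran from -3.99 to 3.44.

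miR-215-5p, which has the seed of miR-192-5p, was detected on neither array, with net signals of -0.681 and 0.164. On the normal-diet array 639 of 896 blank spots were as bright or brighter, and on the high-fat array 389. miR-215-3p, its opposite arm, was also below the limit on both arrays, at -0.535 and 1.49. At 18 of 21 bases in common, the probe of miR-215-5p stayed at the blank level on the array where miR-192-5p stood at 78.7. The neighbouring Mir194-1 shares its locus on chromosome 1.

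miR-122-5p, the main hepatocyte miRNA, had a net signal of 2.01 under normal diet and 1.14 under high-fat diet. The first lies just over the limit of 1.87 and the second under its limit of 1.59. On the normal-diet array 43 of 896 blank spots were as bright or brighter, and on the high-fat array 117. The bound for its difference was at least 1.03-fold higher on normal diet (normalised 56.9 against a floor of 55.2), and its net difference of -0.873 lies inside the central 95% of blank spots. miR-122-3p, its opposite arm, was detected on neither array, with net signals of -0.553 and 0.603. The spot of miR-122-5p lies next to that of miR-143-3p, whose net signal was 2336 and 1206.

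The limit from blank spots is a low one. The arrays also carry 174 spots named as having no probe, of which 89.7% under normal diet and 94.3% under high-fat diet lay above the limit from the blanks, against 6.03% and 5.36% of the blanks. Their net signals averaged 4.03 ± 2.22 and 3.87 ± 1.86 (SD, n = 174 spots). The sources used here do not say what these spots carry. With their mean plus 2 SD as the limit, 8.47 and 7.60, the members above it were miR-192-5p and miR-194-5p on both arrays, 2 of 6, where 46.1% and 57.8% of all miRNA probes were. miR-122-5p on normal diet was equalled or exceeded by 152 of the 174 such spots, and miR-192-3p on high-fat diet by 94. For miR-192-5p this was 2 on normal diet and 0 on high-fat diet, and for miR-194-5p it was 0 on both. Neither miR-122-5p nor miR-192-3p could thus be told from a spot without a probe.

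**Figure D4:**
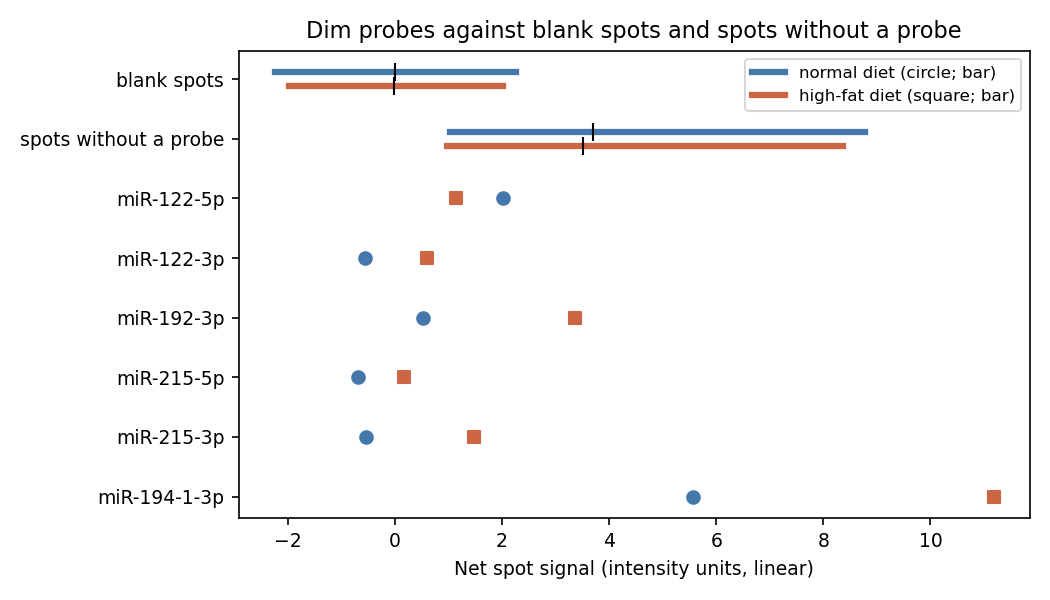
Net signal (intensity units, linear) of the dim probes on the normal-diet array (circles) and the high-fat array (squares), with bars for the central 95% of 896 blank spots and 174 spots without a probe and a black tick for their median. Both miR-122 arms, both miR-215 arms and miR-192-3p lie below the upper end of the bars of spots without a probe, and miR-194-1-3p exceeds them on the high-fat array, at 11.2.

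A list of other miRNAs of liver, gut, kidney and pancreas epithelium went both ways, as did the miRNAs as a whole. Of its 9 members, 5 were detected on both arrays, as were 1339 of all 1900 miRNA probes. On high-fat diet 2 of the 5 were higher and 3 lower, against 471 higher and 862 lower of all 1339. None passed 2-fold, beside 1.27% higher and 0.747% lower of the 1339. Above the limit from spots without a probe were 1 of the 9 on normal diet and 3 on high-fat diet, against 46.1% and 57.8% of all probes. The median log2 difference of the 5 was -0.10, against -0.04 for all 1339 miRNAs. With scaling to the spike controls it was 0.26, against 0.35, and with the local background 0.013, against -0.0052. miR-375-5p had net signals of 1256 and 909 (log2 difference -0.18). Its opposite arm miR-375-3p, of enteroendocrine and pancreatic islet cells, had net signals of 3.62 and 18.9 (log2 difference 0.26). miR-31-5p had 2.37 and 10.3 (0.12). miR-802-3p had 5.03 and 3.43 (-0.10), while its opposite arm miR-802-5p, a miRNA of liver and kidney, was detected on neither array. On normal diet miR-375-3p, miR-31-5p and miR-802-3p lay under the limit from spots without a probe. On high-fat diet miR-802-3p did so as well.

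Markers of other cell types differed between the arrays as well. In the list of general epithelial miRNAs, such as the miR-200 family, 11 of 14 were detected on normal diet and 13 on high-fat diet. Over all miRNA probes it was 72.1% and 79.5%. Above the limit from spots without a probe were 4 and 9 of the 14, against 46.1% and 57.8% of all probes. The net signals of the list summed to 151 and 520.3. Of the 11 detected on both arrays, 8 were higher and 3 lower, against 471 higher and 862 lower of all 1339. Beside 1.27% of the 1339, 2 of the 11 were at least 2-fold higher, miR-200a-3p and miR-200b-3p. Their log2 differences, 1.35 and 1.17, were 0.08 and 0.14 with the local background. The median of the list was 0.05, against -0.04 for all 1339 miRNAs. By plain subtraction it was 0.42, against -0.20, and with scaling to the spike controls also 0.42, against 0.35. With the local background it was 0.08, against -0.0052. In the list of miRNAs of ciliated epithelium and testis, 5 of 11 were detected on normal diet and all 11 on high-fat diet. Their summed net signals were 17.3 and 3014. The 5 detected on both arrays had a median log2 difference of 1.12, and of 0.08 with the local background. Above the limit from spots without a probe were 0 of the 11 on normal diet and 11 on high-fat diet. On the normal-diet array miR-34b-5p, miR-449a-5p, miR-449c-5p, miR-741-3p, miR-743a-3p and miR-880-3p were below the limit from blank spots as well. The 3 erythrocyte miRNAs were all lower, with summed net signals of 5534 and 1050.3. The list of adipose and stromal miRNAs was detected in full on both arrays, beside 72.1% and 79.5% of all miRNA probes. Its net signals ran from 285 to 3034 on normal diet and from 94.97 to 1790 on high-fat diet. Detection alone does not identify the labelled tissue. Of the 9 miRNAs in this list, 8 were lower on high-fat diet, 3 of them at least 2-fold, beside 0.747% of the 1339. The summed net signals of the list were 12183 and 6975. Its median was -0.72, and -0.73 with the local background, but single miRNAs moved far. With the local background miR-145a-5p, miR-30a-5p and miR-26a-5p were higher on high-fat diet (log2 differences 3.49, 1.32 and 0.66). In the main processing theirs were -0.64, -0.82 and -0.63. The other members of the list were lower with the local background. The part of these lists in the values of miR-192-5p and miR-194-5p was not tested.

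By distance in the pair of normalised log2 values over the 2 arrays, the miRNAs most like miR-192-5p were miR-141-3p (72.7 and 127, distance 0.0727), miR-34c-3p (59.6 and 129, distance 0.216) and miR-200c-3p (67.1 and 110, distance 0.222). Their log2 differences were 0.80, 1.12 and 0.71, and 0.18, 0.07 and 0.37 with the local background. On normal diet miR-34c-3p, at a net signal of 4.13, lay under the limit from spots without a probe, 8.47. The miRNAs most like miR-194-5p were miR-7075-5p (105 and 140.6, distance 0.0887), miR-1906 (107 and 158, distance 0.0996) and miR-6965-5p (108 and 140, distance 0.117). Their log2 differences were 0.42, 0.56 and 0.37, and 0.13, 0.17 and -0.10 with the local background. With 2 arrays such likeness only says that the normalised values are close.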

How the data were processed

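Per the labels' protocols, total RNA was labelled with Cy5 and hybridised to 3D-Gene miRNA arrays in 1 colour; the extraction label speaks of cells, the other labels of tissue. Per the file headers, the deposited intensity values are spot medians and local background medians at 635 nm, merged from 3 scanner gains, for 3200 spots per array. The scanner software and a genome build are not given in the sources used here. The value table of processed intensities that the authors deposited held, for each listed probe, the net signal times 1 factor per array (1.86 for normal diet and 1.56 for high-fat diet, largest relative deviation 4.02e-05). It listed exactly the probes above the limit from blank spots, with a median of 25 on both arrays, so its scale is linear with no centring per miRNA.

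Here spot medians were corrected with limma 3.58.1 in R 4.3.3 (normexp, trimmed blank mean as background, offset 50), quantile-scaled with all 1900 miRNA probes and converted to log2, starting from the deposited intensity values. Simulated data with known changes were put through the same processing. A criterion was set only for plain subtraction and net signals above 50, so it does not cover the main processing or dimmer spots. The blank mean was used as background, as in the authors' deposited values, and the local background was kept as an alternative; why the local background is higher around bright spots was not tested. Differences are high-fat minus normal diet, and only miRNAs detected on both arrays have one. A bound sets the brighter normalised value against the higher of the lowest detected value and the probe's own value on the other array. Of the probes, 12 carry several names and were given no single name. With 1 array per diet no test was possible.

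The members, the lists and the rule for names were chosen with earlier results of these data known. The rule named the 6 members, every other probe of the same hairpins, the 3 most alike miRNAs for miR-192-5p and miR-194-5p, and the brightest probes, which were miR-5100 on normal diet and miR-3968 on high-fat diet. From the marker lists it allowed up to 4 of the brightest. miR-802-5p, miR-145a-5p, the miRNAs below the limit and the neighbouring spots were named after their values were seen. Alternatives were other offsets, backgrounds, scalings, limits and the deposited values.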

Additional observations from a re-analysis of the deposited data

How the results depend on the processing

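The log2 difference of miR-192-5p was above 0 under all 9 alternatives, and that of miR-194-5p under all but normexp on the local background, which gave 0.26 and -0.00313 and, over all miRNAs, 24 at least 2-fold higher and 18 lower. With 75th percentile, median, cyclic loess and no scaling, both moved by less than 0.185, the highest SD among the bright controls, although miR-194-5p moved by more than the lowest, 0.102, with median (0.65) and no scaling (0.71). With an offset of 16 they were 1.41 and 0.74 (members past 2-fold 1, all miRNAs 30 higher and 13 lower), by plain subtraction 2.29 and 0.96 (members 1, all 64 higher and 107 lower), with spike-control scaling 1.30 and 1.03 (members 2, all 45 higher and 5 lower), and in the authors' deposited values 2.39 and 1.06 (members 2, all 101 higher and 62 lower), against 0 members, 17 higher and 10 lower in the main processing. A smaller offset shrinks dim values less by construction; for the other settings the cause was not tested. Under stricter limits from blank spots miR-122-5p was no longer detected on normal diet, which left 2 members there and 3 on high-fat diet. The limit from spots without a probe, chosen after seeing the data, left 2 on each. No paired analysis was possible because each diet has 1 array.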

Other observations

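Among all array miRNAs matched to RefSeq, those most like miR-192-5p in sequence, by matching bases in the best ungapped alignment, were miR-215-5p (18 of 21 bases, detected on neither array), miR-6988-3p (14, net signals 3.50 on normal diet and 5.39 on high-fat diet) and miR-181b-2-3p (13, detected on neither). Those most like miR-194-5p were miR-361-5p (14 of 22 bases, net signals 44.2 and 28.1), miR-7226-3p (14, 3.77 and 2.95) and miR-146a-5p (12, 81.3 and 43.9). Of these, miR-361-5p and miR-146a-5p were dimmer on the high-fat array, where miR-194-5p was brighter. miR-7226-3p lay under the limits from spots without a probe, 8.47 and 7.60, on both arrays. Whether any of these miRNAs binds the probe of another was not tested. Of the general epithelial list, miR-203-3p had net signals of 81.0 and 77.0 (log2 difference -0.21), whereas miR-200b-3p had 11.8 and 108 (1.17). With the local background these log2 differences were 0.22 and 0.14, so the contrast depends on the background taken.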
